A study of Mus musculus with 27 samples.

Results

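The mouse genes for the proteasome and its immediate partners were followed through a day of recovery from hydrogen peroxide in embryonic stem cells. The genes were taken by name. A symbol had to consist of Psm, a letter from a to g and a number (a trailing letter was allowed), pseudogenes were left out, and the FPKM had to reach 1 in at least 3 of 27 libraries. The deposited files list 38352 genes; 50 had such a name and 47 passed the minimum, among 13614 genes that passed it in all. FPKM is the number of fragments per kilobase of transcript, scaled to the mapped fragments of a library, so levels can be compared between genes.

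The proteasome is the protease that degrades proteins tagged with ubiquitin. Its barrel-shaped core (20S) is built from outer rings of alpha subunits and inner rings of beta subunits, of which a few carry the proteolytic sites. A regulatory particle (19S) caps the core: a ring of ATPases unfolds the substrate, and non-ATPase subunits of its base and lid bind and remove ubiquitin. Dedicated chaperones assist assembly, and other activators can replace the cap. In oxidative stress the uncapped core is known for degrading oxidized proteins, and in many cells the transcription factors NRF1 (Nfe2l1) and NRF2 (Nfe2l2) raise proteasome genes when proteolysis falls short.

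The cells were E14Tg2a, a wild-type mouse embryonic stem cell line, kept with serum, LIF and 2i inhibitors, which maintain naive pluripotency. Treated dishes received 500 µM hydrogen peroxide for 30 min (the series text gives the unit as mM; the treatment protocol is followed here), after which spent medium of untreated cells was put on. Treated cells were sampled at 0.5 h, at the end of the exposure, and at 2, 4, 6, 8, 10 and 24 h; untreated cells were sampled at 0 h and at 24 h. Each of the 9 groups has 3 libraries of polyadenylated RNA, labelled as biological replicates from 3 independent time courses. Times up to 10 h were set against untreated 0 h cells and 24 h against untreated 24 h cells, so only the 24 h comparison holds culture time equal. The medium change was not made alone in any group, and from 2 h on peroxide and that change cannot be told apart. Whether cells were fewer of a kind or held less of an mRNA cannot be told apart in bulk RNA either.

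The 47 genes fall into classes by the role of their protein. The core alpha class holds 8 genes (Psma1 to Psma8) and the core beta class 7 (Psmb1 to Psmb7). Psmb10 encodes a catalytic beta subunit of the immunoproteasome, a core form of immune cells. The other genes of such alternative cores, Psmb8, Psmb9 and Psmb11, did not pass the minimum and reached at most 0.233, 0.544 and 0.0347 FPKM. The ATPase ring has 6 genes (Psmc1 to Psmc6) and the non-ATPase base and lid 11 (Psmd1 to Psmd4, Psmd6 to Psmd8 and Psmd11 to Psmd14). Among the activators and inhibitor are 6 genes: Psme1, Psme2, Psme2b and Psme3 (subunits of the PA28 rings), Psme4 (PA200) and Psmf1, which encodes PI31, named as a proteasome inhibitor. The assembly chaperones are 7: Psmg1 to Psmg4, which guide core assembly, and Psmd5, Psmd9 and Psmd10, which attend the ATPase ring. Psmc3ip fits the name pattern but encodes a recombination factor, and it was called changed in no comparison.

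In untreated 0 h cells the levels spanned from 2.91 FPKM for Psmd9 to 198 FPKM for Psma6 (means of 3 libraries). Core subunits stood at 36.4 FPKM or more, apart from Psma8, the alpha subunit of the testis core, at 9.07 ± 0.59 (SD, n = 3). ATPase genes ranged from 38.9 FPKM (Psmc2) to 168 FPKM (Psmc5), and base and lid genes from 26.4 FPKM (Psmd11) to 110.4 FPKM (Psmd2). Chaperones stood lower, from 2.91 FPKM to 53.2 FPKM (Psmg1), and Psmf1 had 5.47 ± 0.15 FPKM (SD, n = 3). Some values may include neighbouring transcripts, since the authors' counting of strands is not given in the sources used here. Psmc3ip overlaps Mlx on the opposite strand, which had a mean of 24.4 FPKM, while Psmb7, Psmd13 and Psmc3 overlap weaker antisense genes (Nek6, Sirt3 and Slc39a13, 3.33, 2.23 and 1.68 FPKM). Psme2b is an intronless near-copy of Psme2, and the pseudogene Psma5-ps was listed at 10.9 to 18.4 FPKM, so Psme2, Psme2b and Psma5 are uncertain.

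RefSeq promoter windows of 300 bases on GRCm38.p6, mostly upstream of a RefSeq start of the gene, were at hand for 39 of the 47 genes. They are shown for genes that stand for different courses below: Psma6, a core gene that fell, Psmb5, the gene of a catalytic core subunit, and Psmf1, which rose. Capitals mark matches to GGAAGT (an ETS factor core; on the other strand it reads ACTTCC) in Psma6 and to TGACNNNGC (the core of the antioxidant response element, bound by NRF1 and NRF2 with small MAF partners) in Psmb5. The Psma6 window shown lies inside the gene as positioned below (55384222 to 55418454, plus strand), downstream of the start at 55384222. Psma6 has a second RefSeq start upstream, whose window spans 55384222. That second window holds no GGAAGT match and is not shown. Psmf1 is printed without capitals because its window has no match to any motif searched. That window lies inside the gene as positioned below (151715812 to 151744186, minus strand). It is downstream of the start at 151744186 and does not describe the sequence there.
Psma6 (chr12:55398575-55398874, plus strand): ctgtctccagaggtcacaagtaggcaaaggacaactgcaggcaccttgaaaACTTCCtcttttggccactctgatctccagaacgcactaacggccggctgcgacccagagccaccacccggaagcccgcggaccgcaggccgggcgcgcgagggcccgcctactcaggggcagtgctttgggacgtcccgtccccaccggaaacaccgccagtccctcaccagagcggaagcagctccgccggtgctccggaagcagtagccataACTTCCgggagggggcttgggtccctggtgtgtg
Psmb5 (chr14:54617946-54618245, minus strand): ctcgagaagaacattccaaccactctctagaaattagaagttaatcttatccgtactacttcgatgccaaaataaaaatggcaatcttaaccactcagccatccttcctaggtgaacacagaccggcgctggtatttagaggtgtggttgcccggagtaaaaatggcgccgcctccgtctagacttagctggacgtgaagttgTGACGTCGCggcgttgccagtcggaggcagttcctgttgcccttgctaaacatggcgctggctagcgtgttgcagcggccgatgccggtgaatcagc
Psmf1 (chr2:151741261-151741560, minus strand): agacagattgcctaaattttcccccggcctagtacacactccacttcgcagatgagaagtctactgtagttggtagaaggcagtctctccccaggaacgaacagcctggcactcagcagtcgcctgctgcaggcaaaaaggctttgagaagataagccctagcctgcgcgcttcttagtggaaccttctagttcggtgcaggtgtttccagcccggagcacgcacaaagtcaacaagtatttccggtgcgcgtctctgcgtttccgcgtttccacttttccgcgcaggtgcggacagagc
Both strands were searched for 7 motifs, a gene was counted if any of its windows matched, and 27025 genes had a window. GGAAGT occurred in 20 of 39 proteasome genes (51.3%) and in 26.5% of all genes. TGACNNNGC occurred in 6 of 39 (Psmb5, Psmb6, Psmc6, Psmd12, Psmd9 and Psme4; 15.4%) and in 13.99% of all. Its extended form TGACTCAGC, whose matches are also matches to it, was in 0 of 39 and in 0.503% of all. The other motifs were CCAAT (33.3% against 41.1%), the E box CACGTG (10.3% against 8.09%), the ZNF143 element (7.69% against 2.45%) and the heat shock element (0 of 39 against 0.662%). Proteasome windows were richer in G and C, with a median of 58.5% against 52.8%. These shares describe letters in a window and not the binding of a factor.

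Depth in reads is unknown from FPKM. Steps between low FPKM values put relative depths at 0.982 to 1.10 (untreated 0 h replicate 1 set to 1), and summed FPKM ran from 294485 to 395760. The embryonic stem cell markers Pou5f1, Nanog, Sox2 and 7 others summed to 2421 to 4493 FPKM. The 10 hepatocyte markers summed to 40.01 to 64.7 FPKM in all 0.5 h and untreated 24 h libraries, 6 h replicate 3 and 8 h replicates 1 and 2, and to 0.962 to 6.72 FPKM elsewhere; Alb was listed at 0 in 6 libraries. The 5 astrocyte markers summed to 1.71 to 2.30 FPKM in all untreated 0 h and 4 h libraries, 2 h replicate 3, 6 h replicate 1, 10 h replicate 2 and treated 24 h replicate 3, and to 6.74 to 9.54 FPKM in the others, which include all 0.5 h, 8 h and untreated 24 h libraries. The part of these signals in the results was not tested. For each library the difference from the mean of untreated 0 h replicates 1 and 2 was fitted against transcript GC content. Genes with a mean of 5 FPKM or more entered this fit. In 4 libraries its slope was steeper than in both others of the group, by over 0.15 log2 units per 10 points of GC. These were untreated 0 h replicate 3 (slope 0.44), treated 2 h replicate 1 (0.39), 8 h replicate 3 (0.21) and 10 h replicate 3 (0.22). All 4 h libraries had slopes of 0.15 to 0.24, the 6 h ones 0.12 to 0.13, and untreated 24 h ones 0.22, 0.03 and 0.13.

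The proteasome genes moved with these libraries, class by class. In untreated 0 h replicate 3, the core beta genes lay above the mean of replicates 1 and 2 by a median of 0.83 on the log2(FPKM + 1) scale, the chaperones by 0.53, core alpha genes by 0.25 and ATPase genes by 0.19. Base and lid genes differed by a median of 0.09 and ranged from −0.84 (Psmd1) to 0.64, while the median over all tested genes was −0.15. The same order of core beta above core alpha held in the other libraries standing apart (0.58 and 0.15 in 2 h replicate 1, 0.32 and 0.15 in 8 h replicate 3, 0.32 and 0.13 in 10 h replicate 3). The core beta genes carried the widest error of the large classes, with a median standard error (SE) of a change of 0.17 against 0.07 for the ATPase and core alpha genes. Counts over the 47 genes and for each class from 6 h to 10 h are given with all libraries and without these 4.

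**Figure D1:**
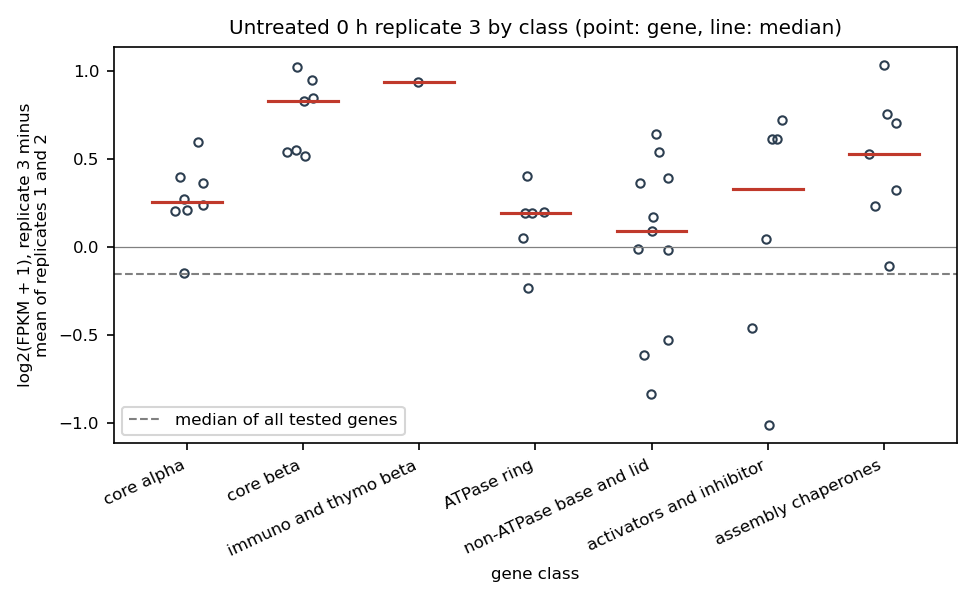
Difference in log2(FPKM + 1) between untreated 0 h replicate 3 and the mean of untreated 0 h replicates 1 and 2, for 46 proteasome genes (points) by class, with class medians (lines) and the median of all tested genes (dashed). The core beta genes lie highest among the larger classes, with a median of 0.83, and the median of all tested genes is −0.15.

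Differences below are of mean log2(FPKM + 1), with the SE in brackets, from 1 limma model of all 27 libraries. A gene was called changed at a Benjamini-Hochberg adjusted p below 0.05 over all 13614 genes. Where proteasome mRNAs changed between 6 h and 10 h, most fell. None of the 47 genes was called at 0.5 h or 2 h, and few at 4 h. Called lower were 14 at 6 h, 14 at 8 h and 17 at 10 h (29.8%, 29.8% and 36.2%). Of all genes 20.0%, 11.6% and 9.43% were lower at these times. The called genes came from the core alpha, ATPase, base and lid and chaperone classes each time. Psmb10 was among them at 8 h and 10 h, and of the core beta genes only Psmb7, at 10 h. Of the activators and inhibitor 2 were lower each time, but only without the 4 libraries. Without those libraries 16, 21 and 26 of the 47 were lower, where 30.7%, 17.6% and 14.2% of all genes were. The 6 h count was then near the share of all genes, with a median change of −0.04 over the 47. At 24 h 3 were lower, where 4.28% of all genes were. Against this run stood Psmf1, higher from 4 h to 10 h, and the chaperone gene Psmd5, which fell and then rose.

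At 0.5 h 0.0147% of all genes were called higher and 0.0661% lower, and at 2 h 0.499% and 0.566%. By limma's test none of the 47 genes was called at either time, and 7 and 2 had an unadjusted p below 0.05. Under every alternative run none was called at 0.5 h, and at 2 h 1 gene was called higher after correction for GC content and length and none otherwise. Without the 4 libraries none was called at 2 h, where 0.646% of all genes were higher and 1.87% lower. The median change at 0.5 h was −0.11 with all libraries and −0.0015 without the 4 standing apart; core beta genes, at a median of −0.28, moved to −0.07.

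At 4 h 2 genes were called higher, where 14.2% of all genes were, and 1 was lower, where 12.1% were. They were the ATPase gene Psmc1, Psmf1 and, lower, Psmd5. The median over the 47 was 0.03 and over all genes 0.01. Without the 4 libraries standing apart 19 genes were called higher (22.9% of all genes) and 3 lower (27.7%), with 6 of 7 core beta and 5 of 8 core alpha genes among the higher ones. Leaving out untreated 0 h replicate 1, 2 or 3 alone gave 4 higher with 2, 1 and 1 lower. In the fit of the 2 groups alone 1 was higher.

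At 6 h 14 of 47 genes (29.8%) were called lower, where 20.0% of all genes were, and 2 (4.26%) were called higher, where 22.3% were. The median was −0.16, and 0.00028 over all genes. Without the 4 libraries 16 were lower (30.7% of all genes) and 2 higher (25.4%), and the medians came to −0.04 for the 47 genes and −0.03 for all. A fit of only the untreated 0 h and 6 h libraries called 2 lower and 1 higher (8.41% and 11.5% of all genes).

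At the 2 later times most called proteasome genes were lower, while more of all genes were higher than lower. At 8 h 14 genes were lower (29.8%, against 11.6% of all genes) and 2 higher (against 29.2%); at 10 h 17 were lower (36.2%, against 9.43%) and 2 higher (against 22.2%). The medians were −0.20 and −0.28, while the median over all genes was 0.11 at both times. Median-of-ratios scaling moved the all-gene medians to −0.01 and 0.0042 and the split of the 47 genes to 2 higher and 22 lower at 8 h (21.2% and 18.4% of all genes) and 0 higher and 26 lower at 10 h (16.0% and 14.7%). Without the 4 libraries 21 were lower and 3 higher at 8 h (17.6% and 30.7% of all genes), and 26 were lower and 2 higher at 10 h (14.2% and 25.6%). With only the 2 groups in the fit 1 was called at 8 h, higher (9.03% of all genes; 2.26% were lower), and 0 at 10 h (2.83% higher, 0.727% lower). Leaving out 10 h replicate 2 gave 10 lower at 10 h.

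The step from 4 h to 6 h used none of the libraries standing apart and no untreated library, although all groups shared 1 estimate of spread. Here 14 of 47 genes were lower (29.8%, against 8.48% of all genes) and 0 higher (against 11.6%), with medians of −0.21 for the 47 and −0.0029 for all genes. Every 6 h library was below every 4 h library for 35 of the 47 genes, as it was for 26.7% of all genes; for 1, Psmf1, it was above (28.9%). All 7 core beta and all 6 ATPase genes were among the 35, with 7 of 8 core alpha and 8 of 11 base and lid genes. The slopes with GC content were lower at 6 h than at 4 h, and correction for GC content and length left 11 lower (13.8% of all genes). Scaling left 8 (7.59% of all genes), as did leaving out 4 h replicate 1 or 6 h replicate 3, and 9 were lower without 4 h replicate 2. The fit of these 2 groups alone called 33 lower, and the fit without the 4 libraries 32, where these fits called 20.3% and 20.4% of all genes lower.

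**Figure D2:**
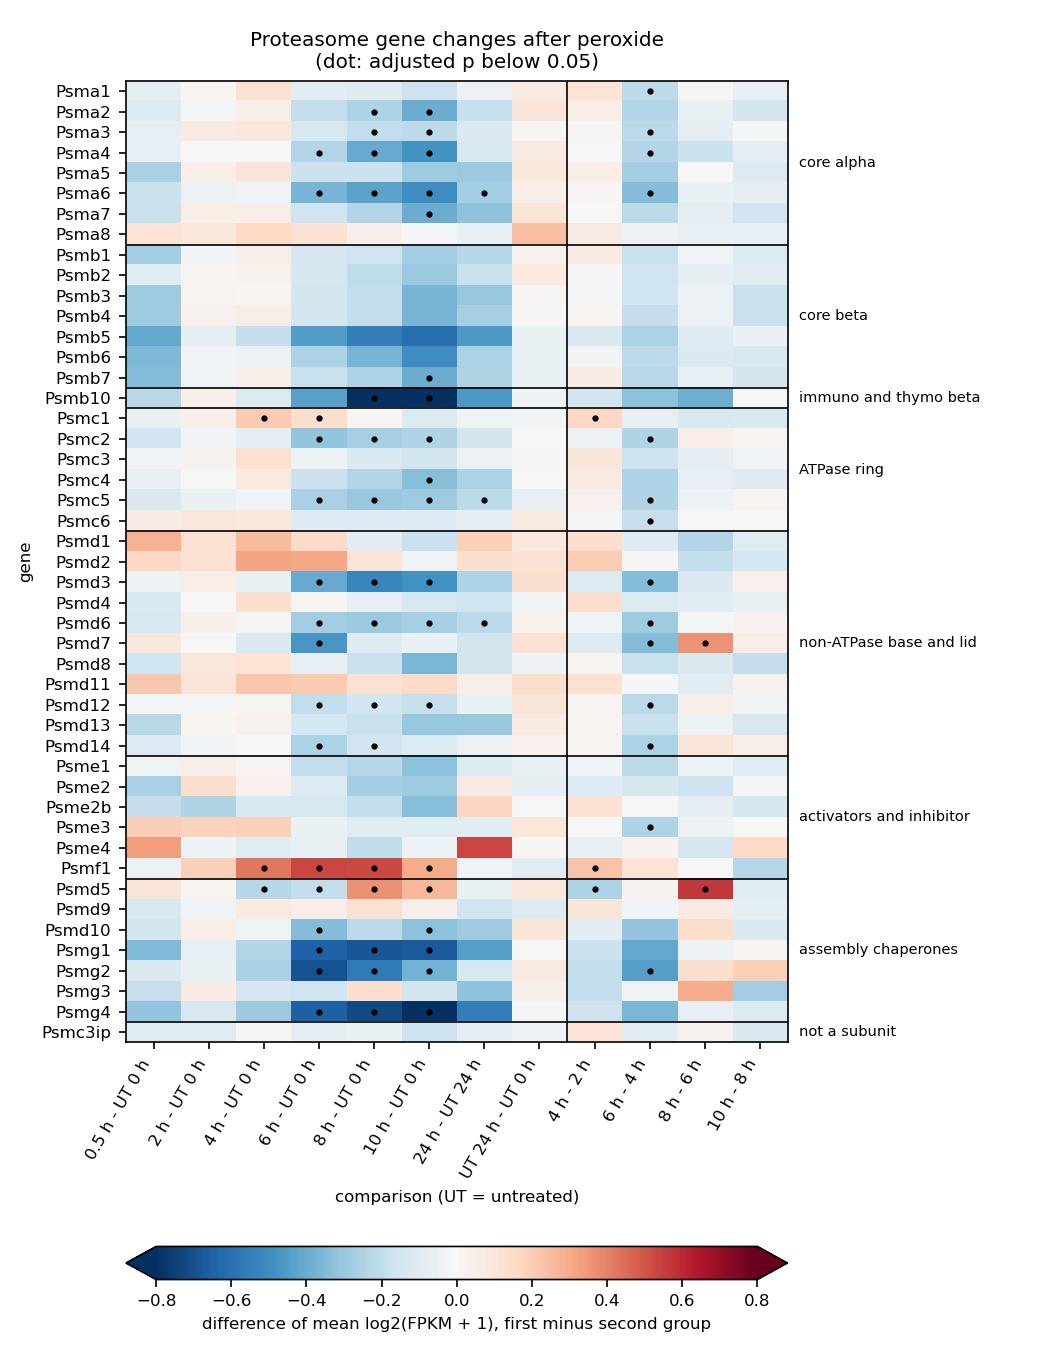
Change of each of the 47 genes (rows, by class) in 12 comparisons (columns; UT, untreated): colour gives the difference of mean log2(FPKM + 1), blue lower and red higher, and a dot marks an adjusted p below 0.05 in limma's test. Blue dots gather at 6 h to 10 h and in the step from 4 h to 6 h, and red dots at Psmf1, Psmd5, Psmd7 and Psmc1.

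Summed over the 47 genes, the share of all FPKM in a library was 0.893%, 0.901% and 0.901% in untreated 0 h replicates 1 to 3 and 0.919%, 0.922% and 0.925% at 4 h. It was 0.838%, 0.812% and 0.817% at 6 h, 0.782%, 0.791% and 0.812% at 8 h, and 0.801%, 0.779% and 0.804% at 10 h. At 24 h the treated libraries held 0.887%, 0.879% and 0.871% and the untreated ones 0.948%, 0.907% and 0.908%. No 6 h to 10 h library reached a share seen in any other group. In untreated 0 h replicate 3 core beta genes took 0.268% of all FPKM, against 0.192% and 0.197% in the others, and base and lid genes 0.188%, against 0.229% and 0.231%, so its total lay among theirs while its makeup differed.

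**Figure D3:**
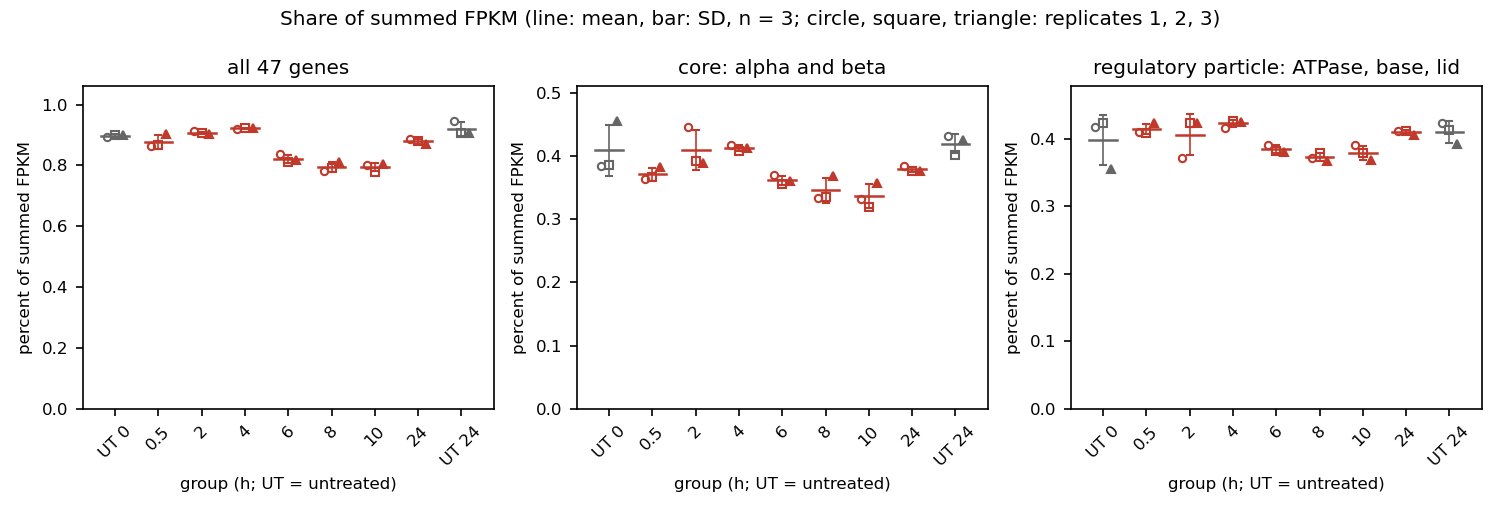
Share of summed FPKM (percent) held by all 47 genes, by the core alpha and beta genes and by the ATPase, base and lid genes, in every library, with the mean and SD of 3 replicates per group (UT, untreated). The total lies at 0.779% to 0.838% from 6 h to 10 h and at 0.863% or more in all other libraries.

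Core alpha subunits form the outer rings of the core and its gate. At 6 h 2 of 8 were called lower, at 8 h 4 and at 10 h 5, with class medians of −0.17, −0.22 and −0.34. The shares of all genes called lower were 20.0%, 11.6% and 9.43%. Without the 4 libraries the counts were also 2, 4 and 5, beside 30.7%, 17.6% and 14.2% of all genes. The class medians in that fit were −0.05, −0.15 and −0.23. Psma6 (ENSMUSG00000021024, chromosome 12 from 55384222 to 55418454) was the most abundant of the 47 in untreated 0 h cells. In what follows, 3 values given for a time are replicates 1, 2 and 3 in that order. Psma6 had 188, 182 and 223 FPKM in untreated 0 h cells, 175, 172 and 178 at 0.5 h, 207, 181 and 184 at 2 h and 189, 194 and 195 at 4 h. Its FPKM was then 152, 152 and 151 at 6 h, 143, 139.9 and 157 at 8 h and 141, 128 and 150.4 at 10 h. At 24 h it was 170.1, 168 and 167 in treated and 202, 198 and 211 in untreated cells. Every library of 6 h to 10 h was below every earlier one. Psma6 fell by 0.37 at 6 h (SE 0.074, limma adjusted p = 0.000299), by 0.43 at 8 h and by 0.49 at 10 h (adjusted p = 0.000103 and 3.06e-05). After correction for GC content and length the 6 h change was −0.18.

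Psma4 (ENSMUSG00000032301, chromosome 9 from 54950790 to 54958030) stood at 88.7, 84.5 and 102 FPKM before treatment and at 89.4, 86.1 and 87.3, then 95.6, 89.4 and 88.8, then 91.8, 92.1 and 90.4 at 0.5, 2 and 4 h. At 6 h its libraries had 79.5, 78.4 and 75.3 FPKM, at 8 h 67.3, 65.5 and 74.1 and at 10 h 66.4, 62.9 and 67.3. At 24 h they had 86.9, 90.2 and 88.4 against 102, 89.00 and 98.1 FPKM untreated. The treated 24 h range thus lay back near the starting range and overlapped the untreated one. Psma4 fell by 0.23 at 6 h (SE 0.067, limma adjusted p = 0.00756), by 0.41 at 8 h and by 0.48 at 10 h (adjusted p = 5.95e-05 and 1.56e-05). The 6 h change was −0.15 without untreated 0 h replicate 3 and −0.03 with GC content and length corrected, neither called. In the fit without the 4 libraries Psma4 was among the 2 core alpha genes called lower at 6 h. Psma2 and Psma3 were also lower at 8 h and 10 h (−0.25 and −0.39; −0.20 and −0.21), and Psma7 at 10 h (−0.40). Psma1, Psma5 and the testis subunit Psma8 were not called at these times.

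Core beta subunits line the chamber, and Psmb5, Psmb6 and Psmb7 carry its proteolytic sites. All 7 changes were below 0 at 6, 8 and 10 h, with medians of −0.15, −0.21 and −0.37, but only Psmb7 at 10 h was called (−0.40, SE 0.12, limma adjusted p = 0.0192). Psmb3 (ENSMUSG00000069744, chromosome 11 from 97703399 to 97713500), a structural beta subunit, stands for the class. It had 99.8, 106 and 199 FPKM in untreated 0 h cells, 103, 106 and 107 at 0.5 h, 188, 109 and 108 at 2 h and 135, 123 and 131 at 4 h. It had 114, 118 and 115 at 6 h, 100.3, 104 and 134 at 8 h and 93.1, 87.4 and 119 at 10 h. Treated 24 h libraries had 107, 101 and 106 and untreated ones 139, 111 and 140.5. The highest value of its group fell in each of the 4 libraries standing apart, and every treated 24 h library was below every untreated one. The 6 h change of Psmb3 was −0.15 with all libraries (adjusted p = 0.608) and 0.17 without the 4 (adjusted p = 0.0613), so its direction turned with them.

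Psmb5 carries the chymotrypsin-like site. Its FPKM was 96.4, 99.2 and 199 in untreated 0 h cells, 119, 99.7 and 108 at 4 h and 88.2, 93.8 and 90.8 at 6 h. It was 72.1, 76.7 and 109 at 8 h and 73.7, 74.05 and 99.1 at 10 h, and at 24 h 89.8, 82.5 and 87.8 against 129.7, 101 and 129 untreated. In replicates 1 and 2 all values at 8 h and 10 h were below those of untreated 0 h cells, while replicate 3 was higher in all 3 groups. The change at 10 h was −0.60, SE 0.24, with all libraries (adjusted p = 0.0585), and −0.40 without the 4, which passed the test (adjusted p = 0.00207). Without these libraries, 0 core beta genes were lower at 6 h, 2 at 8 h (Psmb5 and Psmb6) and 4 at 10 h (with Psmb1 and Psmb7), and the class median at 6 h turned to 0.04. In that fit 30.7%, 17.6% and 14.2% of all genes were lower at these times.

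Psmb10 (ENSMUSG00000031897, chromosome 8 from 105935735 to 105938444) was the only alternative beta subunit above the minimum. It was listed at 6.55, 8.15 and 14.9 FPKM in untreated 0 h cells, 7.10, 7.87 and 8.62 at 0.5 h, 14.2, 7.45 and 8.35 at 2 h and 9.15, 7.59 and 9.04 at 4 h. Values at 6 h were 6.24, 6.88 and 6.80, at 8 h 4.28, 5.04 and 5.23 and at 10 h 4.27, 4.87 and 5.42. At 24 h they were 5.79, 6.88 and 6.21 treated and 10.1, 8.02 and 8.99 untreated. All 8 h and 10 h libraries were below all others. Psmb10 fell by 0.82 at both times (SE 0.20, limma adjusted p = 0.00288 and 0.00403), and by 0.56 and 0.58 without the 4 libraries. At 6 h it was not called (−0.43, adjusted p = 0.0948). The 5 immune cell markers summed to 1.22 to 5.94 FPKM over the libraries; their part in the Psmb10 level was not tested.

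In the ATPase ring, which unfolds substrates, 2 of 6 genes were lower at 6 h and at 8 h and 3 at 10 h, with medians of −0.14, −0.18 and −0.19. The shares of all genes called lower were 20.0%, 11.6% and 9.43%. With the 4 left out 3, 4 and 4 were lower (30.7%, 17.6% and 14.2% of all genes), with Psmc6 at all 3 times and Psmc4 at 8 h in addition. Psmc2 (ENSMUSG00000028932, chromosome 5 from 21785283 to 21803787) had 36.9, 37.2 and 42.6 FPKM untreated at 0 h, 33.2, 35.1 and 36.04 at 0.5 h, 40.8, 36.4 and 37.5 at 2 h and 36.1, 37.95 and 36.7 at 4 h. From 6 h to 10 h it had 31.6, 31.1 and 30.4, then 32.2, 30.7 and 33.7, then 34.04, 30.5 and 33.7. At 24 h it had 36.4, 34.2 and 34.1 treated and 39.7, 36.5 and 40.1 untreated. All 6 h to 10 h libraries lay below the 0 h range. Psmc2 fell by 0.31 at 6 h (SE 0.065, limma adjusted p = 0.000477), by 0.26 at 8 h and by 0.24 at 10 h, and the 6 h change was −0.34 after correction for GC content and length.

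Psmc5 (ENSMUSG00000020708, chromosome 11 from 106256154 to 106263120) was more abundant. Its FPKM was 158, 162 and 183 in untreated 0 h cells, 149, 153 and 162 at 0.5 h, 166, 158 and 160.0 at 2 h and 166, 162 and 166 at 4 h. At 6, 8 and 10 h it was 142, 141 and 135, then 128, 134 and 144, then 133, 131 and 148. The 24 h libraries had 139, 137 and 138 treated and 176, 148 and 158 untreated, and these groups did not overlap. Psmc5 fell by 0.26 at 6 h (SE 0.070, limma adjusted p = 0.0045; −0.13 and not called after correction for GC content and length), by 0.30 at 8 h and by 0.28 at 10 h. Psmc4 was lower at 10 h (−0.34, SE 0.10, adjusted p = 0.0152), and Psmc6 in the step from 4 h to 6 h (−0.18). Psmc3 was not called in any comparison with all libraries.

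Psmc1 went the other way early. It had 145, 151 and 153 FPKM in untreated 0 h cells, 169, 170.5 and 179 at 4 h, 166, 167 and 164 at 6 h, 145, 149.5 and 159 at 8 h and 141, 134 and 142 at 10 h. All libraries of 4 h and 6 h were above those of 0 h. Psmc1 rose by 0.21 at 4 h (SE 0.053, limma adjusted p = 0.0056) and by 0.14 at 6 h (adjusted p = 0.0346), and by 10 h its change was −0.11, not called.

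Among the 11 non-ATPase subunits of base and lid, 5 were lower at 6 h, 4 at 8 h and 3 at 10 h, with medians of −0.14, −0.16 and −0.18. The shares of all genes called lower were 20.0%, 11.6% and 9.43%. With the 4 left out 5, 5 and 6 were lower, beside 30.7%, 17.6% and 14.2% of all genes. The class medians were then −0.13, −0.12 and −0.19. Psmd7 (ENSMUSG00000039067, chromosome 8 from 107580381 to 107588464) encodes the partner of the lid deubiquitinase, which is the product of Psmd14. It had 104, 109 and 106 FPKM in untreated 0 h cells, 113, 119 and 109 at 0.5 h, 106, 104 and 108 at 2 h and 100.1, 98.7 and 95.4 at 4 h. The 6 h libraries stood at 77.3, 76.6 and 76.3, and the 8 h and 10 h ones at 96.7, 96.3 and 103 and at 101, 98.04 and 109. At 24 h it had 105, 104 and 104 treated and 124, 114 and 111 untreated. The 6 h libraries were thus the lowest of all 27, with a narrow spread. Psmd7 fell by 0.47 at 6 h (SE 0.054, limma adjusted p = 4.10e-07) and rose by 0.36 from 6 h to 8 h (adjusted p = 3.27e-05), after which its 8 h and 10 h changes from 0 h were −0.10 and −0.05, neither called with all libraries; without the 4 the 8 h change was −0.14 and called.

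Psmd3 (ENSMUSG00000017221, chromosome 11 from 98682554 to 98695979), a lid subunit, kept its fall to 10 h. It had 48.4, 51.5 and 64.4 FPKM in untreated 0 h cells, 52.1, 53.2 and 52.9 at 0.5 h, 63.8, 53.3 and 52.6 at 2 h and 52.3, 52.3 and 51.8 at 4 h. It then had 39.9, 42.1 and 40.3 at 6 h, 35.2, 35.2 and 42.9 at 8 h and 38.6, 36.00 and 41.4 at 10 h. Treated 24 h cells had 49.6, 48.1 and 51.3 and untreated ones 62.9, 54.4 and 61.2. No library of 6 h to 10 h reached the lowest value of 0 h. Psmd3 fell by 0.41, 0.52 and 0.48 at 6, 8 and 10 h (SE 0.095; limma adjusted p = 0.00154, 0.000179 and 0.000557), and by 0.29, 0.49 and 0.41 without the 4 libraries.

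Psmd6 and Psmd12, both lid genes, were also lower at all 3 times (changes of −0.28, −0.29 and −0.26 for Psmd6 and of −0.20, −0.16 and −0.18 for Psmd12). Psmd14, the deubiquitinase gene, was lower at 6 h (−0.25) and 8 h (−0.16; −0.12 and not called without the 4 libraries). The large base subunits Psmd1 and Psmd2, the ubiquitin receptor gene Psmd4 and Psmd8, Psmd11 and Psmd13 were not called against untreated cells with all libraries. Without the 4, Psmd1 was lower at 8 h and 10 h (−0.26 and −0.33), and Psmd8 and Psmd13 were lower at 10 h (−0.26 and −0.19). Psmd2 had 126, 124 and 81.1 FPKM in untreated 0 h cells, with replicate 3 far below the others, and 134, 133 and 136 at 6 h.

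Of the activators and the inhibitor, Psmf1 was the only one of the 6 called against untreated cells with all libraries. In the fit without the 4 libraries 2 were lower at 6 h and 8 h, Psme3 (−0.21 and −0.23) and Psme4 (−0.41 and −0.39), and 2 at 10 h, Psme3 (−0.22) and Psme1 (−0.22). Beside them 30.7%, 17.6% and 14.2% of all genes were lower at 6, 8 and 10 h. At 4 h Psme4 was lower in that fit (−0.44) and Psme1 higher (0.23). Psmf1 (ENSMUSG00000032869, chromosome 2 from 151715812 to 151744186) had 5.48, 5.31 and 5.60 FPKM in untreated 0 h cells, 5.48, 5.05 and 5.23 at 0.5 h, 7.55, 5.79 and 5.95 at 2 h and 7.81, 7.44 and 7.71 at 4 h. It reached 7.97, 8.57 and 8.53 at 6 h and 7.99, 8.33 and 8.65 at 8 h, and had 6.96, 6.61 and 7.33 at 10 h. At 24 h it was at 4.92, 4.85 and 5.06 treated and 4.91, 4.94 and 5.43 untreated. All libraries of 2 h to 10 h were above all untreated ones. Psmf1 rose by 0.42 at 4 h, 0.53 at 6 h, 0.53 at 8 h and 0.30 at 10 h (SE 0.070; limma adjusted p = 9.44e-05, 2.62e-06, 4.60e-06 and 0.00257). The 10 h change was 0.18 and not called under median-of-ratios scaling, and 0.19 and not called after correction for GC content and length.

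Psme3, which encodes the nuclear PA28 ring, was with all libraries called lower only in the step from 4 h to 6 h (−0.25, SE 0.086, limma adjusted p = 0.0473). Psme1, Psme2 and Psme2b were not called with all libraries, with changes at 10 h of −0.33, −0.28 and −0.34. Psme4, the gene of PA200, a nuclear activator, had 33.6, 33.6 and 16.1 FPKM in untreated 0 h cells, 22.4, 26.9 and 24.6 at 4 h and 25.8, 24.4 and 25.2 at 6 h. Its 24 h values were 39.6, 39.8 and 37.5 treated and 24.7, 31.4 and 24.04 untreated. The 24 h groups did not overlap, but the change of 0.54 missed the threshold (SE 0.23, adjusted p = 0.125); it passed without the 4 libraries (adjusted p = 2.80e-05), of which none belongs to 24 h. In those 4 libraries Psme4 was lowest of its group.

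**Figure D4:**
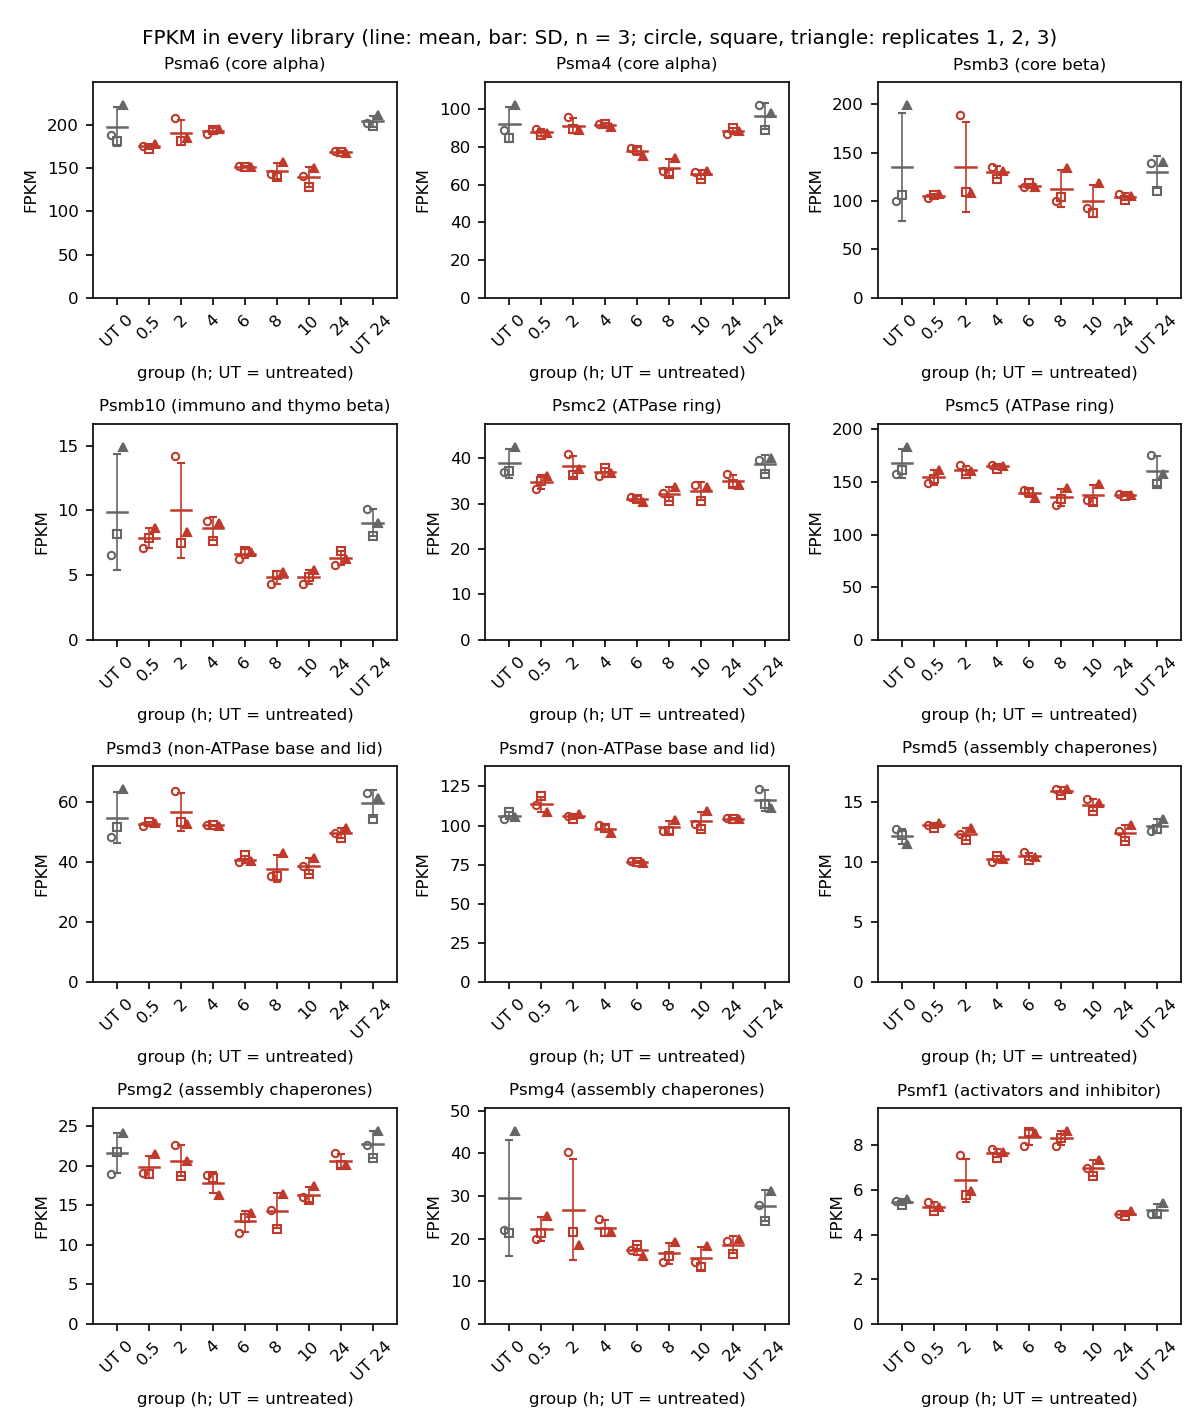
FPKM of 12 genes in every library by group (UT, untreated; times in h), with circles, squares and triangles for replicates 1, 2 and 3 and the mean and SD of 3 replicates per group. Psma6 has its lowest values at 6 h to 10 h, Psmd7 at 6 h, and Psmf1 its highest at 6 h and 8 h; triangles at untreated 0 h stand high for Psmb3, Psmb10 and Psmg4.

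Among classes of several genes the assembly chaperones had the lowest median at 6 h. Of 7, 5 were lower at 6 h, and 3 lower and 1 higher at 8 h, and 4 lower and 1 higher at 10 h, with medians of −0.35, −0.21 and −0.33. At these times 20.0%, 11.6% and 9.43% of all genes were lower, and 22.3%, 29.2% and 22.2% higher. In the fit without the 4 libraries 4, 3 and 4 were lower, beside 30.7%, 17.6% and 14.2% of all genes. Higher in that fit were 0, 2 and 1, beside 25.4%, 30.7% and 25.6%. The class medians in it were −0.23, −0.10 and −0.23. Psmg2 (ENSMUSG00000024537, chromosome 18 from 67641599 to 67654162), which pairs with Psmg1 to start the alpha ring, had 19.01, 21.7 and 24.1 FPKM in untreated 0 h cells, 19.1, 18.95 and 21.4 at 0.5 h, 22.6, 18.7 and 20.5 at 2 h and 18.8, 18.5 and 16.4 at 4 h. It had 11.5, 13.4 and 14.01 at 6 h, 14.4, 12.03 and 16.5 at 8 h and 15.99, 15.7 and 17.4 at 10 h. At 24 h the treated libraries had 21.6, 20.1 and 20.1 and the untreated ones 22.7, 21.00 and 24.4. All 6 h libraries were below all 4 h libraries. Psmg2 fell by 0.69 at 6 h (SE 0.10, limma adjusted p = 1.35e-05), of which 0.44 came between 4 h and 6 h (adjusted p = 0.00458), and by 0.57 and 0.38 at 8 h and 10 h.

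Psmg4 (ENSMUSG00000071451, chromosome 13 from 34162964 to 34178173) forms the other core chaperone pair with Psmg3. It had 21.97, 21.3 and 45.3 FPKM in untreated 0 h cells, 19.9, 21.3 and 25.4 at 0.5 h, 40.4, 21.5 and 18.6 at 2 h and 24.7, 21.5 and 21.5 at 4 h. At 6, 8 and 10 h it had 17.4, 18.4 and 15.98, then 14.5, 15.9 and 19.3, then 14.4, 13.3 and 18.4. Treated 24 h cells had 19.5, 16.3 and 20.00 and untreated ones 27.9, 24.1 and 31.3. Untreated 0 h replicate 3 stood far above both others, and the size of the change rests on it. Psmg4 fell by 0.66 at 6 h (SE 0.24, limma adjusted p = 0.0335), by 0.72 at 8 h, also called, and by 0.83 at 10 h (adjusted p = 0.0125). Without untreated 0 h replicate 3 the 6 h and 10 h changes were −0.31 and −0.48, neither called. In the fit without the 4 libraries Psmg4 was among the 4 chaperones called lower at 6 h and the 4 at 10 h. Psmg1 also had a high replicate 3, with 43.1, 43.1 and 73.5 FPKM at 0 h and 33.4, 31.02 and 33.3 at 6 h. Its changes of −0.65, −0.68 and −0.67 at 6, 8 and 10 h were called, and came to −0.39, −0.54 and −0.53, all called, without the 4 libraries. Psmg3 was not called with all libraries, and Psmd10 was lower at 6 h (−0.35; −0.17 and not called without the 4 libraries) and 10 h (−0.33).

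Psmd5 (ENSMUSG00000026869, chromosome 2 from 34849734 to 34874968), which encodes the chaperone S5b, had a course of its own. Its FPKM was 12.8, 12.3 and 11.5 in untreated 0 h cells, 13.1, 12.8 and 13.3 at 0.5 h and 12.3, 11.9 and 12.9 at 2 h. It was 10.02, 10.5 and 10.2 at 4 h, 10.8, 10.2 and 10.4 at 6 h, 16.1, 15.6 and 16.1 at 8 h and 15.3, 14.3 and 14.9 at 10 h. The 24 h libraries had 12.6, 11.7 and 13.1 treated and 12.6, 12.8 and 13.6 untreated. All 4 h and 6 h libraries were below, and all 8 h and 10 h libraries above, every other one. Psmd5 fell by 0.23 at 4 h and 0.20 at 6 h (SE 0.054; limma adjusted p = 0.0029 and 0.00487; −0.27 and not called at 4 h after correction for GC content and length). It rose by 0.56 from 6 h to 8 h (adjusted p = 1.30e-07), to 0.36 above 0 h at 8 h and 0.26 at 10 h (adjusted p = 1.49e-05 and 0.000717). Psmd9, the least abundant of the 47 at 0 h, was not called.

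The other steps moved few of the genes. From 2 h to 4 h 2 were higher (Psmf1 and Psmc1; 10.2% of all genes) and 1 lower (Psmd5; 9.89%); without the 4 libraries 11 were higher and 2 lower (17.8% and 22.2%), and leaving out 2 h replicate 2 or 3 or 4 h replicate 1 or 3 gave 0 higher and 1 lower. Scaling left 0 higher and 1 lower (10.5% and 11.1% of all genes). From 6 h to 8 h 2 were higher (Psmd5 and Psmd7; 18.1% of all genes) and 0 lower (6.02%), but 7 were lower under median-of-ratios scaling, 13 after correction for GC content and length, 9 without the 4 libraries, and 2 without 8 h replicate 3. From 8 h to 10 h none was called by limma's test (1.78% of all genes were higher and 3.58% lower), and 2 had an unadjusted p below 0.05. Without the 4 libraries 2 were lower (6.95% of all genes), and with GC content and length corrected 1 was higher (7.57%).

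At 24 h, with time in culture matched, 3 genes were lower (6.38%, against 4.28% of all genes) and 0 higher (against 8.63%). They were Psma6 (−0.27, SE 0.074, limma adjusted p = 0.0183), Psmd6 (−0.22, SE 0.056, adjusted p = 0.0134) and Psmc5 (−0.21, SE 0.070, adjusted p = 0.0485). The median over the 47 was −0.15 and over all genes 0.07. Treated libraries were below all untreated ones for 24 of the 47 genes, as for 19.4% of all genes, and above them for 2 (34.1%). The count rests on the spread assumed: 17 were lower and 1 higher in a fit of these 2 groups alone (13.1% and 22.7% of all genes), and 27 lower and 2 higher in the fit without the 4 libraries (18.2% and 33.1%), among them all 7 core beta genes. With untreated 24 h replicate 3 left out 0 were called, and 1 was lower when a treated library or untreated replicate 1 was left out. The untreated 24 h libraries had steeper GC slopes (0.22, 0.03 and 0.13) than the treated ones (−0.03 to 0.0050) and more hepatocyte marker signal (40.01 to 56.1 FPKM against 0.962 to 1.59 FPKM), whose part in the result was not tested. After correction for GC content and length 4 were lower and 2 higher (7.45% and 12.3% of all genes), and the change of Psma6 was −0.09.

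Untreated cells at 24 h and 0 h were compared for the drift of the culture. None of the 47 genes was called by limma's test (0.426% of all genes were higher and 0.279% lower), 3 had an unadjusted p below 0.05, and the median was 0.04. Without the 4 libraries 17 were higher and 2 lower (11.7% and 18.4% of all genes), with 6 of 7 core beta genes higher. The effect at 24 h differed from that at 10 h for 3 genes, 1 higher and 2 lower (2.95% and 5.75% of all genes). Psma4 was lower by more at 10 h (difference of the 2 effects 0.36, SE 0.095, limma adjusted p = 0.0217), and Psmf1 and Psmd5 were higher at 10 h than at 24 h relative to their controls (−0.34, SE 0.10 and −0.32, SE 0.076, adjusted p = 0.0388 and 0.0093). Leaving out untreated 0 h replicate 3 gave 3 higher and 2 lower, and leaving out replicate 2 of treated or untreated 24 h cells gave 0 higher and 1 lower. With scaling 0 were higher and 1 lower (4.59% and 4.33% of all genes).

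Genes around the proteasome were taken from 3 lists, and their calls are given with all libraries only. Proteasome genes with names outside the pattern numbered 11 tested of 12, and 1 was higher and 2 lower at 6 h, 2 and 1 at 8 h and 3 and 1 at 10 h. These counts stand beside 14.2% (higher) and 12.1% (lower) of all genes for 4 h, 22.3% and 20.0% for 6 h, 29.2% and 11.6% for 8 h, and 22.2% and 9.43% for 10 h. Zfand2a, the gene of the stress-induced cap factor AIRAP, had 8.25, 9.01 and 6.36 FPKM in untreated 0 h cells, 17.04, 17.4 and 16.2 at 4 h, 19.1, 18.7 and 18.03 at 6 h, 13.8, 14.2 and 12.9 at 8 h and 11.04, 9.70 and 8.89 at 10 h. It rose by 1.02 at 4 h and 1.15 at 6 h (SE 0.095; limma adjusted p = 4.03e-08 and 2.61e-09). Uchl5, a cap deubiquitinase gene, was lower at 6 h (−0.22), and Akirin2, whose protein brings proteasomes into the nucleus, was lower at 4 h and 6 h (−0.54 and −0.48). The core assembly gene Pomp and the ubiquitin receptor gene Adrm1 were not called against untreated cells. Pomp had 20.99, 21.1 and 32.1 FPKM in untreated 0 h cells and 28.3, 26.8 and 26.6 at 4 h. Adrm1 had 31.4, 32.9 and 51.1 FPKM at 0 h and 39.5, 36.1 and 37.1 at 4 h. For both, untreated 0 h replicate 3 was above all 4 h libraries, while replicates 1 and 2 were below them.

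The regulators of proteasome genes had 14 tested of 15, and 8 were higher and 3 lower at 6 h, with a median of 0.51, where 22.3% of all genes were higher and 20.0% lower. At 4 h 6 were higher and 0 lower (14.2% and 12.1% of all genes). The counts were 7 and 2 at 8 h (29.2% and 11.6%) and 6 and 2 at 10 h (22.2% and 9.43%). The small MAF genes Maff, Mafg and Mafk, whose proteins pair with NRF1 and NRF2, were higher by 2.07, 1.22 and 1.09 at 6 h. Nfe2l2 had 23.9, 24.1 and 20.2 FPKM in untreated 0 h cells, 30.7, 30.4 and 30.4 at 4 h, 30.9, 31.9 and 31.7 at 6 h, 35.1, 35.1 and 35.4 at 8 h and 32.6, 31.02 and 30.2 at 10 h. All treated libraries of 4 h to 10 h were above those of 0 h, and Nfe2l2 rose by 0.41, 0.46, 0.61 and 0.45 at these times (SE 0.060; limma adjusted p at 8 h = 7.58e-08). Nfe2l1 was at 36.2, 35.3 and 20.98 FPKM at 0 h and 28.9, 29.99 and 29.2 at 6 h, and was not called. Its untreated 0 h replicate 3 was below all 6 h libraries, while replicates 1 and 2 were above them. Foxo4 and Nfyc were lower at 6 h (−0.78 and −0.60), and so was Keap1, the negative regulator of NRF2 (−0.22), which was higher at 8 h (0.48).

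Of the genes for ubiquitin and its delivery 17 of 18 were tested; 6 were higher and 1 lower at 4 h, where 14.2% and 12.1% of all genes were. At 6 h 5 were higher and 2 lower, beside 22.3% and 20.0% of all genes, and at 8 h 3 and 2, beside 29.2% and 11.6%. Sqstm1, the gene of the ubiquitin-binding autophagy receptor p62, had 39.03, 41.8 and 50.8 FPKM in untreated 0 h cells, 77.01, 75.4 and 77.4 at 6 h, 92.5, 94.2 and 111 at 8 h and 105, 100.2 and 114 at 10 h. It rose by 1.27 at 10 h (SE 0.095, adjusted p = 3.29e-09), while the shuttle factor gene Ubqln2 was lower at 6 h (−0.83).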

How the data were processed

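Deposited FPKM values were used as the authors gave them, 1 per gene and library, in 7 tables that were joined by gene identifier. Tools listed in the submitters' processing notes, all without a version, are HISAT2, StringTie, cutadapt, FastQC and edgeR, with the mouse build mm10; annotation release and strand setting: not given in the sources used here. Per the labels, libraries were stranded, polyadenylated and sequenced in pairs. Genes with at least 1 FPKM in at least 3 libraries entered 1 model of log2(FPKM + 1) over 9 groups in limma 3.58.1 (R 4.3.3; Python 3.11.15 and pandas 2.3.3 for the rest), with p-values adjusted by Benjamini-Hochberg over 13614 genes and a threshold of 0.05. A pseudocount of 1 understates changes of low genes. The model was tested on simulated data. Coordinates are those of GENCODE on GRCm38.

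Values in every library are given for up to 2 called genes per class with the largest change at 6 h (with no call, the most abundant) and for the largest called rise and fall elsewhere; Psmb5, Psmc1, Psme4, Psmg1, Psmd2 and the genes named from the surrounding lists are exceptions, picked with their values in view. Genes and lists were chosen with earlier results of these data known. Alternatives changed the filter, pseudocount, scaling, variance trend, groups fitted, replicate block and replicates kept, or corrected for GC content and length. Equal summed FPKM and leaving out the 4 libraries with steep GC slopes were chosen after seeing the data. Results of a few genes of the surrounding lists are not reported here.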

Additional observations from a re-analysis of the deposited data

Results flagged for a closer look

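For 3 of the genes the effect of treatment at 24 h (against untreated 24 h cells) differed from that at 10 h (against untreated 0 h cells), by limma's test of the difference itself over all 13614 genes. For Psmf1 the difference between the effects was −0.34 (adjusted p = 0.0388), for Psmd5 it was −0.32 (adjusted p = 0.0093), and for Psma4 it was 0.36 (adjusted p = 0.0217). Psmf1 and Psmd5 were thus nearer to their control at 24 h after a rise, and Psma4 after a fall. The difference for Psmf1 was −0.34 and did not pass the test after correction for GC content and length (adjusted p = 0.239).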

How the results depend on the processing

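The counts of called genes among the 47 rested most on the estimate of spread and on 4 libraries. Percentages in brackets are the shares of all genes called higher and lower in the same fit. With only the compared groups in the fit, 1 gene was called at 4 h (4.52%, 3.27%), 3 at 6 h (11.5%, 8.41%) and 1 at 8 h (9.03%, 2.26%). At 10 h 0 were called (2.83%, 0.727%) and at 24 h 18 (22.7%, 13.1%). The counts were 0 from 2 h to 4 h (5.77%, 4.86%), 33 from 4 h to 6 h (23.1%, 20.3%) and 0 for the 24 h against the 10 h effect (1.09%, 1.98%). Without the 4 libraries with steep GC slopes, 22 were called at 4 h (22.9%, 27.7%), 29 at 24 h (33.1%, 18.2%) and 19 between untreated 24 h and 0 h (11.7%, 18.4%). The steps gave 13 from 2 h to 4 h (17.8%, 22.2%), 32 from 4 h to 6 h (24.0%, 20.4%) and 11 from 6 h to 8 h (30.5%, 12.8%). From 8 h to 10 h 2 were called (5.08%, 6.95%), and 7 for the 24 h against the 10 h effect (13.5%, 13.4%). Correction for GC content and length gave 1 at 2 h, 7 at 4 h, 6 at 24 h, 15 from 6 h to 8 h and 1 from 8 h to 10 h. Median-of-ratios scaling gave 1 from 2 h to 4 h, 8 from 4 h to 6 h, 9 from 6 h to 8 h and 1 for the 24 h against the 10 h effect, and equal summed FPKM gave 1 from 2 h to 4 h. Apart from the fits with fewer samples, the cause was not tested. Leaving out each replicate in turn gave 0 calls at 0.5 h and 2 h, 3 to 6 at 4 h, 13 to 18 at 6 h, 12 to 20 at 8 h, 12 to 27 at 10 h, 0 to 3 at 24 h, 0 between the untreated groups, 1 to 3 from 2 h to 4 h, 8 to 11 from 4 h to 6 h, 2 to 4 from 6 h to 8 h, 0 from 8 h to 10 h and 1 to 5 for the 24 h against the 10 h effect. With the replicate number as a block, 23 genes were called at 10 h (19 without the block), and the counts were 0 at 0.5 h and 2 h, 3 at 4 h, 16 at 6 h and at 8 h and 3 at 24 h, equal to those without it, as were those of the other comparisons. Same-numbered libraries of different groups had deviations correlated by a median of 0.04, above 0.1 in 35 of 108 pairs, against a median of −0.02 and 46 of 216 for different numbers, and 15 of 27 libraries correlated best with their own number; the fit without the block was kept, since no label ties a number to 1 of the time courses and not every same-numbered pair exceeded 0.1. Over all alternatives, 336 values of the genes named by the rule kept their side of the threshold, 58 no longer passed it, 2 newly passed it, and none that was called changed sign; the uncalled 6 h change of Psmb3 turned from −0.15 to 0.17 without untreated 0 h replicate 3 and without the 4 libraries. Depth in reads is unknown, and 3 libraries per group limit the precision.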
